A study of Mus musculus with 6 samples.

Results

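The forkhead family of transcription factor genes was examined in larger proximal airways of mice that lack Foxp1 and Foxp4 in part of the airway epithelium. Members were all array rows that name exactly 1 gene whose symbol is Fox, a letter from a to s and a number, with the brightest row kept where a gene had several. This gave 43 forkhead genes among the 19938 named genes of the array. The tested mice were Scgb1a1-Cre:Foxp1flox/flox:Foxp4flox/flox mutants (3 arrays), and the controls carried the Scgb1a1-Cre driver alone (3 arrays). Both groups were 9-week-old mice whose strain is given as a mix of C57BL/6 and 129X1. Airways were dissected under a microscope from frozen, stained sections of lung, and RNA of each sample was amplified and hybridised to 1 Affymetrix array. The Scgb1a1 promoter drives Cre in club cells, the secretory cells of the conducting airway, so epithelial cells of other origin and all non-epithelial cells of the sample keep intact alleles.

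Forkhead proteins bind DNA through a winged-helix domain that recognises a short TGTTT-containing core, and the family is named by letter according to that domain. In the lung, Foxa1 and Foxa2 act in epithelial differentiation, Foxj1 directs the building of motile cilia, Foxf1 belongs to mesenchyme and endothelium, and Foxp1, Foxp2 and Foxp4 are repressors of the epithelium that work as dimers. Foxo proteins answer insulin and growth factor signalling, Foxm1 drives genes of cell division, and Foxp3 defines regulatory T cells.

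Values are log2 expression values as deposited, so a difference of 1 is a doubling. The array medians lay between 5.89 and 5.95, and arrays correlated across genes at 0.972 to 0.993. Markers of the labelled tissue were present: club cell markers averaged 12.50 to 12.57 per array in mutants and 12.32 to 12.45 in controls, and ciliated cell markers 9.06 to 9.85 in mutants and 9.55 to 9.88 in controls. Alveolar type 2 markers were also high, at 11.51 to 11.59 in mutants and 11.06 to 11.29 in controls. Arrays of a group were far apart in the cells they carried. The mean of 4 B and plasma cell markers was 6.26, 9.19 and 6.70 in the mutant arrays, against 7.15, 10.62 and 10.53 in the control arrays, and that of 6 T and NK cell markers was 5.73, 6.42 and 5.68 against 6.03, 7.64 and 7.57. Controls 2 and 3 were the highest arrays in both lists, and mutant 2 came next, nearer to them than to the remaining arrays in the B and plasma cell markers but not in the T and NK cell markers. Mutant 2 had the lowest mean of 5 ciliated cell markers (9.06), and control 1 and mutant 2 had the highest means of 5 cardiac muscle markers (11.9 and 11.71, against 8.96 to 10.63 elsewhere). Whether the arrays of a group stem from different mice is not stated, and p-values therefore cover the spread between these samples alone, which may be technical.

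No forkhead gene passed the test between mutant and control airways. With limma's moderated test and Benjamini-Hochberg adjustment over all genes, 0 of 43 members had an adjusted p under 0.05, where 0.266% of all genes did (0.236% higher and 0.0301% lower in mutants). At an unadjusted p under 0.05 there were 6 members (14.0%), 1 higher and 5 lower in mutants, beside 10.1% of all genes. The members' smallest adjusted p was 0.200. The median difference, mutant minus control, was 0.03 over the members and 0.02 over all genes, with 26 members above 0 and 17 below. The median size of the difference was 0.10 for the members and for all genes alike. A difference over 0.5 was found for 3 members (6.98%, beside 6.16% of all genes) and one over 1 for 1 member, Foxa3 (beside 1.57% of all genes). The spread of arrays within a group had a median SD of 0.17 for members and 0.15 for all genes.

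The 3 mutant arrays lay wholly apart from the 3 control arrays for 7 members, and 15.0% of all genes shared this property. Foxp1, Foxp4, Foxo1, Foxj2, Foxj3 and Foxm1 were lower in every mutant array, a direction found for 5.64% of all genes, and Foxs1 was higher in every mutant array, a direction found for 9.33%. Leaving aside the targeted Foxp1 and Foxp4, 4 of 41 members lay wholly lower. Foxj2 and Foxm1 missed an overlap by a narrow margin, and both overlapped once the arrays were centred on their medians or quantile normalised again. The plot of differences with their intervals shows Foxp4, Foxm1, Foxo1 and Foxp3 at the low end, Foxa3 alone at the high end, and most members close to 0.

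**Figure D1:**
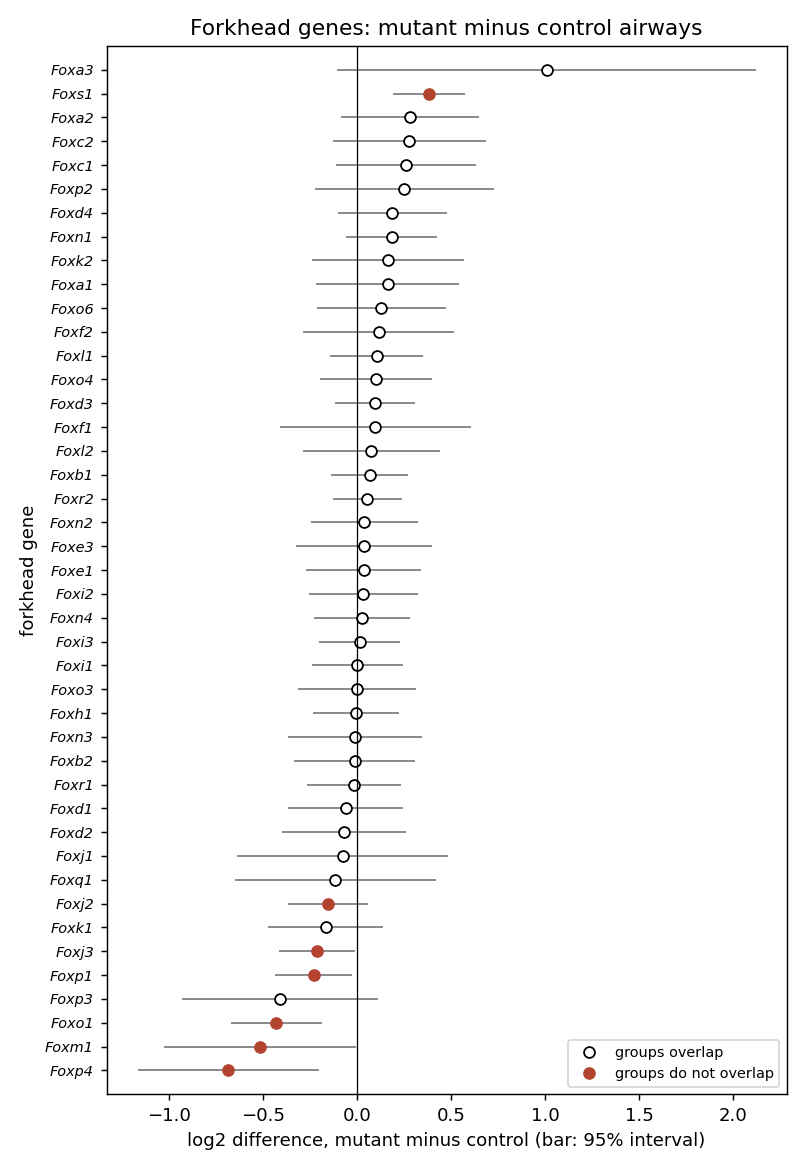
Log2 difference (mutant minus control, x axis) of each of the 43 forkhead genes (y axis), with limma's 95% interval for a single gene, not adjusted over genes. Filled points are the 7 genes whose mutant and control arrays do not overlap; Foxp4 lies lowest at -0.69 and Foxa3 highest at 1.01, with the widest interval (-0.11 to 2.12).

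The targeted genes were both lower in every mutant array, and neither passed the test. Foxp4 (probe set 10451613) read 8.41, 7.77 and 8.49 in mutant arrays, against 8.77, 9.01 and 8.95 in control arrays. Every mutant array was below every control array, and mutant 2 was the lowest by a wide margin. The difference was -0.69 (SE 0.20, 95% interval -1.17 to -0.20), so the mutant signal was 0.622 of the control signal (limma adjusted p = 0.339). Foxp1 (probe set 10546661) read 9.24, 9.34 and 9.31 in mutant arrays, against 9.42, 9.62 and 9.55 in control arrays. Its groups also did not overlap, and its arrays were tighter than those of Foxp4. The difference was -0.23 (SE 0.09, interval -0.44 to -0.03), or 0.851 of the control signal (limma adjusted p = 0.444). An exact permutation test on the 6 arrays of each gene, two-sided, gave p = 0.1, which is as low as this design can go.

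Both genes stayed below 0 in all 17 settings tried, between -0.82 and -0.46 for Foxp4 and between -0.31 and -0.13 for Foxp1. Most settings leave arrays out or change the model, which cannot turn the sign where groups do not overlap. Mutant 2 carried much of the Foxp4 difference, which was -0.46 without it. The difference passed in 1 setting, with control 1 and mutant 2 both left out (-0.53, adjusted p = 0.0478). In that array the club cell markers averaged 12.57, against 12.50 and 12.56 in the other mutants, and the ciliated cell markers 9.06, against 9.70 and 9.85. The part of cell makeup in the Foxp4 value was not tested. Within each group, Foxp1 followed the order of the B and plasma cell markers. It was highest in controls 2 and 3, whose lymphoid markers were high. Without these 2 arrays the Foxp1 difference was -0.13, with control 1 as the only control, and it had to shrink. The part of lymphoid cell content in the Foxp1 value was not tested. In tissue of many cell types, fewer cells that express a gene and less of its RNA per cell cannot be told apart. Which exons the probe sets of Foxp1 and Foxp4 cover, relative to the floxed ones, is not known here, so these values are no check of the deletion itself.

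Foxp2 and Foxp3, the remaining members of the subfamily, had overlapping groups. Foxp2, which shares the lung epithelium with Foxp1 and Foxp4, read 8.20, 7.82 and 8.26 in mutant arrays, against 8.23, 7.69 and 7.62 in control arrays. Mutants 1 and 3 and control 1 were high, and mutant 2 lay with controls 2 and 3. The difference was 0.25 (interval -0.23 to 0.73, limma adjusted p = 0.757). It was 0.58 and passed (limma adjusted p = 0.0351) once control 1 and mutant 2 were left out. It was -0.14 once controls 2 and 3 were left out, with control 1 as the only control. Both choices were made with the values known.

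**Figure D2:**
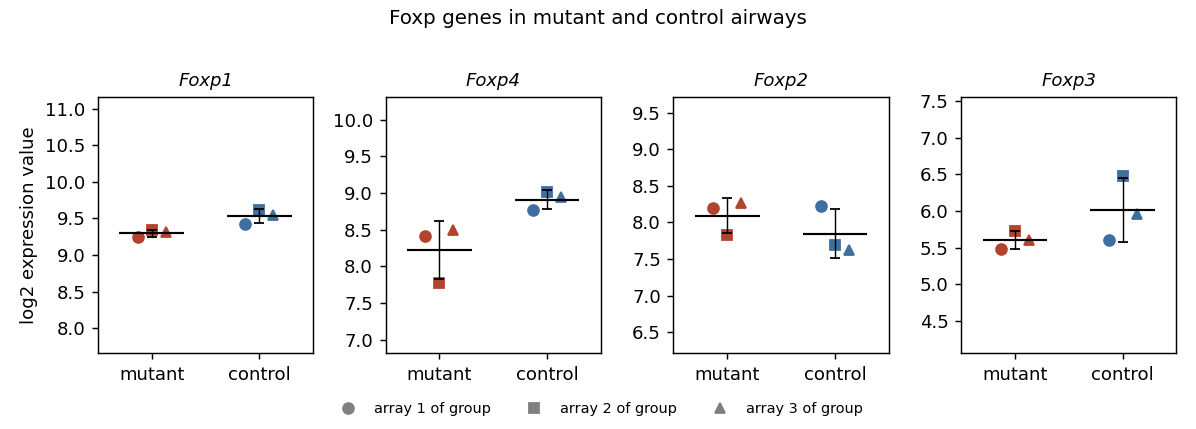
Log2 expression value (y axis, each panel spanning the same number of log2 units) of the Foxp genes in mutant and control airways; each point is 1 array, lines are group means and bars SD (n = 3 each). Foxp1 and Foxp4 show mutant arrays wholly below control arrays, while Foxp2 and Foxp3 overlap.

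Promoter windows from RefSeq (GRCm38.p6, 250 bases before to 50 bases after a listed start) were searched for the forkhead core. A listed start need not be the outer end of the gene. The windows of Foxa1 and Foxp1 lie wholly inside the spans of these genes. The targeted proteins belong to a family that binds it. The motifs were TGTTTAC and the wider TGTTTNC, which includes the first, on both strands. Windows were matched by symbol for 28 of the 43 members. TGTTTNC was in 7 of 33 windows (21.2%), beside 20.5% of all 32851 promoter windows, and TGTTTAC was in 1 (3.03%, against 3.65%). The windows of the targeted genes, of Foxo1 and Foxj3, which were lower in every mutant array, and of Foxa1, the member with TGTTTAC, are shown 5′ to 3′ on the gene's strand. Capitals mark TGTTTNC or its reverse complement. A match is a run of letters and not a binding site.
Foxp1: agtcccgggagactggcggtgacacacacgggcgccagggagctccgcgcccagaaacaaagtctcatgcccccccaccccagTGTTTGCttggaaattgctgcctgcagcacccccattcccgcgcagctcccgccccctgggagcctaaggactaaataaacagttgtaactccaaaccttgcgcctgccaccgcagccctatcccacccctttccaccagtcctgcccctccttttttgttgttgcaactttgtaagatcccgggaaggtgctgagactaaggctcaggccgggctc
Foxp4: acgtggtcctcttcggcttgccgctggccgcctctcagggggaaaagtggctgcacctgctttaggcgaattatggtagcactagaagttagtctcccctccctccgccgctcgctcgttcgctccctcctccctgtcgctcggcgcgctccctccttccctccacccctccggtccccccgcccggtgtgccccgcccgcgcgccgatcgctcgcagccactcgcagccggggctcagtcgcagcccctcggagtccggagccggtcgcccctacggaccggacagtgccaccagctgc
Foxo1: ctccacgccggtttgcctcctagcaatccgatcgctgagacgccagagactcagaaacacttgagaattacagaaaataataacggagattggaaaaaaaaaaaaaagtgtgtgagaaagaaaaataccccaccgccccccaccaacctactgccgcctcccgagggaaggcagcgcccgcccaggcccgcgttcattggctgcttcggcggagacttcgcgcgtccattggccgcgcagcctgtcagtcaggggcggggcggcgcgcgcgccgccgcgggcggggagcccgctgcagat
Foxj3: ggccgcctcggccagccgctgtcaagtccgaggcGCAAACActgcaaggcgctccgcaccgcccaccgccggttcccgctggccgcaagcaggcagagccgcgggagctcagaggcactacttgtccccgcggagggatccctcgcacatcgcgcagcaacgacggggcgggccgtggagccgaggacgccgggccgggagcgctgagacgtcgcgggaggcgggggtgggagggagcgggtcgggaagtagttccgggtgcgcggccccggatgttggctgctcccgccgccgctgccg
Foxa1: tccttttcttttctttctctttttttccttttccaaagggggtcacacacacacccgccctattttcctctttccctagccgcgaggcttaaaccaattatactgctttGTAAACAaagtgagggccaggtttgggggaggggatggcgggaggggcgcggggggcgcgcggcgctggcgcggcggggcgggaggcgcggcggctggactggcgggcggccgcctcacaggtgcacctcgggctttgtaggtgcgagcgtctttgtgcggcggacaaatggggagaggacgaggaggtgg
They lie at chr6:99520944-99521243 (minus strand, the first of 3 Foxp1 windows, the others without a match), chr17:47924583-47924882 (minus), chr3:52268087-52268386 (plus), chr4:119539411-119539710 (plus) and chr12:57546062-57546361 (minus), in that order. Positions are relative to the listed start of each window. The match in Foxp1 is TGTTTGC from -167, and that in Foxj3 is its reverse complement from -216. The match in Foxa1 is the reverse complement of TGTTTAC from -141. Foxp4 and Foxo1 hold neither motif in these windows. The window of Foxj2, also lower in every mutant array and not shown, holds neither as well. No window was matched for Foxm1, which was also lower in every mutant array. By gene, TGTTTNC was in 7 of 28 members (25%), beside 22.8% of all genes with windows. Thus the lower members that had windows included some with and some without the letters.

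Foxp3, the regulator of regulatory T cells, was highest in the controls whose lymphoid markers were high. It read 5.49, 5.73 and 5.61 in mutant arrays, against 5.61, 6.48 and 5.97 in control arrays. Controls 2 and 3 were high, and control 1 lay among the mutants. The difference was -0.41 (interval -0.93 to 0.11, limma adjusted p = 0.605) and shrank to -0.003 without controls 2 and 3. As these were the highest Foxp3 arrays, the difference had to shrink, and control 1 was the only control left. The 7 regulatory T cell genes that go with Foxp3 averaged 5.72, 5.94 and 5.88 in mutant arrays, against 5.84, 7.08 and 6.87 in control arrays, so the same controls were high. None of the 7 passed, 6 were below 0 and their median difference was -1.02. Tnfrsf4, a costimulatory receptor, stood at -1.02, Il2ra, the high-affinity interleukin 2 receptor chain, at -1.06, and the cytokine gene Il10 at -0.32. Il10 read 4.40, 4.41 and 4.50 in mutant arrays, near the lower quartile of all rows (4.42 to 4.50). The part of lymphoid cell content in the Foxp3 value was not tested.

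**Figure D3:**
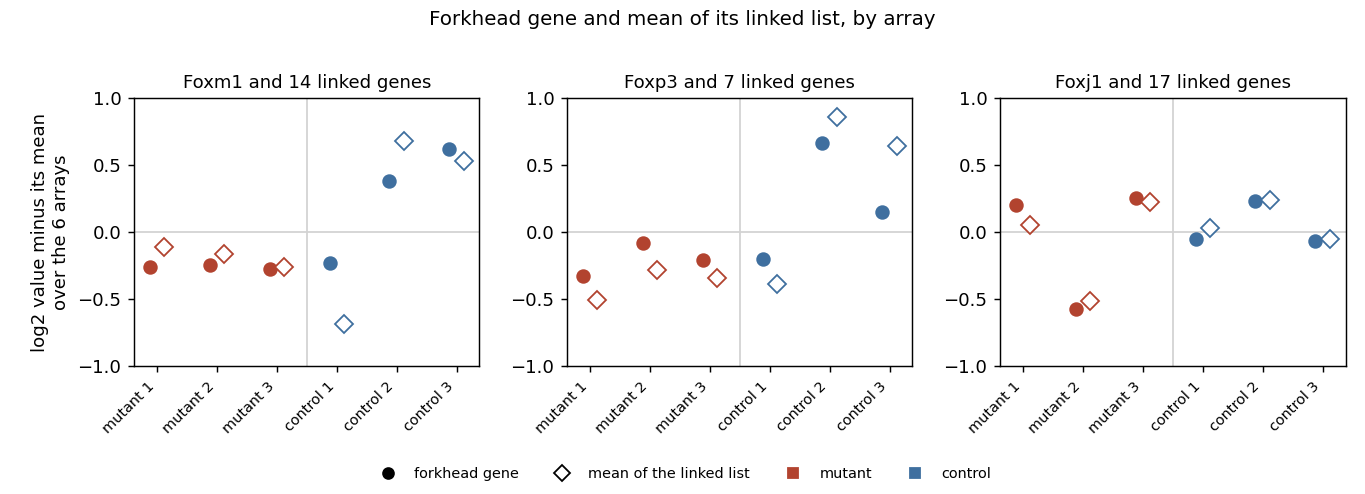
Foxm1, Foxp3 and Foxj1 (filled circles) and the mean of their linked lists (open diamonds) in each array (x axis), as log2 value minus its own mean over the 6 arrays (y axis). Controls 2 and 3 are high for Foxm1 and Foxp3 and for their lists, and mutant 2 is low for Foxj1 and the cilia genes.

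Among the epithelial regulators, the 3 Foxa genes were higher on average in mutants and none passed. Foxa3, which in mouse airway is tied to goblet cell differentiation, had the widest range of the family. It read 7.51, 5.81 and 7.10 in mutant arrays, against 5.43, 6.35 and 5.62 in control arrays. Mutants 1 and 3 exceeded every control, while mutant 2 lay within the control range. The difference was 1.01 (SE 0.46, interval -0.11 to 2.12, limma adjusted p = 0.543), a fold of 2.01, and it was 1.51 without mutant 2 and 0.66 without mutant 1. The largest SD within a group of any member belonged to its mutant arrays (0.89).

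Foxa2, whose loss in mouse airway leads to mucous cells, read 7.97, 7.76 and 8.06 in mutant arrays, against 7.35, 7.78 and 7.83 in control arrays. Control 1 was low and the remaining arrays overlapped (difference 0.28, interval -0.09 to 0.65, adjusted p = 0.619), and the difference was 0.13 without control 1. Foxa1, its partner in lung epithelium, read 9.45, 8.97 and 9.51 in mutant arrays, against 9.23, 9.18 and 9.03 in control arrays. Mutant 2 was the lowest of all 6 (difference 0.16, interval -0.22 to 0.54, adjusted p = 0.826), and the difference was 0.33 without mutant 2 and 0.06 without mutant 3. Of 8 measured genes known as Foxa targets in lung epithelium, all were above 0 with a median of 0.24 against 0.02 over all genes, 4 were higher in every mutant array (beside 9.33% of all genes), and none passed. The surfactant protein gene Sftpa1 stood at 0.40, the membrane mucin gene Muc1 at 0.27 and Scgb1a1 itself at 0.25 (limma adjusted p = 0.306, 0.475 and 0.476). Sftpa1, Sftpb and Sftpc of this list are also alveolar type 2 markers, whose means were higher in every mutant array. Scgb1a1 is also a club cell marker, and the means of those markers were higher in every mutant array too (12.50 to 12.57 against 12.32 to 12.45). The part of alveolar tissue and of club cells in these values was not tested.

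Foxj1, which switches on the genes of motile cilia, had overlapping groups. It read 9.04, 8.27 and 9.10 in mutant arrays, against 8.79, 9.08 and 8.78 in control arrays. A single array, mutant 2, was low, and the other mutants lay at the top of the control range. The difference was -0.08 (interval -0.64 to 0.48, limma adjusted p = 0.957) and turned to 0.19 without mutant 2. The 17 measured cilia genes had means of 9.09, 8.52 and 9.26 in mutant arrays, against 9.07, 9.28 and 8.98 in control arrays. Of these genes, 7 were above 0 and 10 below, with a median difference of -0.07. None passed and 1 had groups that did not overlap. That gene, Tekt2, a tektin of ciliary microtubules, read 6.94, 6.34 and 7.05 in mutant arrays, against 7.53, 8.10 and 7.67 in control arrays (difference -0.99, adjusted p = 0.228). The axonemal dynein gene Dnah5 stood at -0.46 and the central pair gene Hydin at -0.42, both with overlap.

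The regulators of multiciliated cells around Foxj1 averaged 7.74, 7.21 and 7.84 in mutant arrays, against 7.42, 7.63 and 7.68 in control arrays. Mutant 2 thus had the lowest mean, but it was not the lowest array for Gmnc, Myb, E2f4 and E2f5. Of 9 genes none passed or separated the groups, with a median of 0.02. Trp73 was 7.50, 6.24 and 7.57 in mutant arrays, against 7.23, 7.53 and 7.56 in control arrays, so mutant 2 was low here as well. Mcidas stood at 0.17 and Ccno at 0.23. Foxn4, which in frog acts in multiciliated cells, read 5.79, 5.51 and 5.71 in mutant arrays, against 5.71, 5.70 and 5.53 in control arrays, with no separation (difference 0.02, interval -0.23 to 0.28).

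Foxi1, the regulator of ionocytes and other cells rich in proton pumps, read 5.38, 5.31 and 5.58 in mutant arrays, against 5.48, 5.34 and 5.45 in control arrays. Its groups overlapped fully, and the interval of the difference ran from -0.24 to 0.24. Its row was among the lowest 40% of genes by mean. Among 7 measured genes linked to it in proton-pumping cells, none passed and the signs were mixed. Atp6v1b1, a subunit of the proton pump, read 6.72, 6.26 and 6.89 in mutant arrays, against 8.15, 7.64 and 7.24 in control arrays. Every mutant array was lower (difference -1.05, adjusted p = 0.269). Atp6v0d2, another subunit, was higher in every mutant array (0.73, limma adjusted p = 0.475), and the chloride channel gene Cftr stood at -0.40. Cftr read 4.24, 4.57 and 4.29 in mutant arrays, near the lower quartile of all rows (4.42 to 4.50). Foxq1, found in several epithelia, read 7.34, 6.82 and 7.38 in mutant arrays, against 7.69, 7.18 and 7.02 in control arrays (difference -0.12, interval -0.65 to 0.42).

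**Figure D4:**
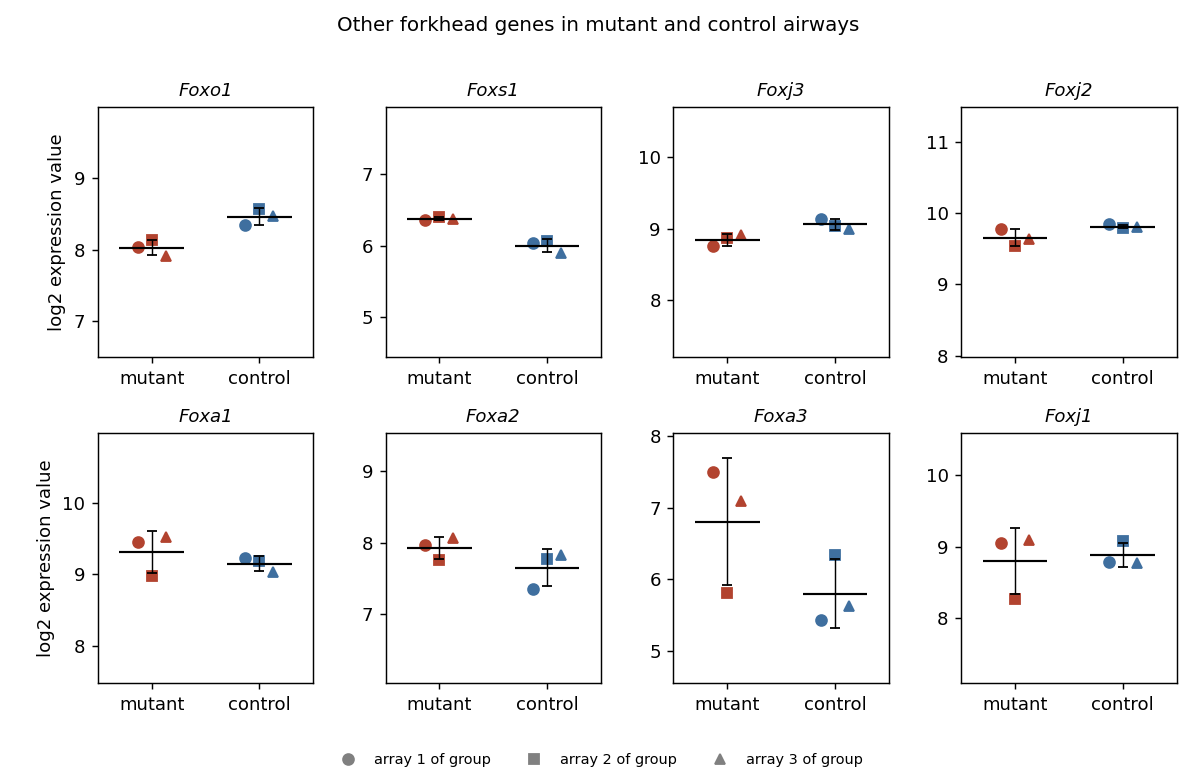
Log2 expression value (y axis, each panel spanning the same number of log2 units) of 8 forkhead genes in mutant and control airways; each point is 1 array, lines are group means and bars SD (n = 3 each). The arrays of Foxo1, Foxs1, Foxj3 and Foxj2 do not overlap between groups, while Foxa3 and Foxj1 have mutant 2 well below mutants 1 and 3.

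Of the broadly expressed members, Foxo1 had the smallest p. This mediator of insulin signalling, which growth factors keep out of the nucleus, read 8.04, 8.13 and 7.92 in mutant arrays, against 8.34, 8.57 and 8.47 in control arrays. All mutant arrays were below all controls, control 1 included. The difference was -0.43 (SE 0.10, interval -0.67 to -0.19), or 0.742 of the control signal (limma adjusted p = 0.226, exact permutation p = 0.1). It ranged from -0.54 to -0.31 over 17 settings and passed in 1 of them, with arrays weighted by their quality (-0.50, adjusted p = 0.0483). Without controls 2 and 3, whose lymphoid genes were high, it was -0.31, with control 1 as the only control. Controls 2 and 3 were also the highest Foxo1 arrays, so the difference had to shrink.

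Its relative Foxo3 did not share this. Foxo3 read 9.15, 8.96 and 8.95 in mutant arrays, against 9.19, 8.78 and 9.09 in control arrays (difference -0.002, interval -0.32 to 0.31). Of 18 genes known as Foxo targets, 13 were below 0 and 5 above, with a median of -0.21 against 0.02 over all genes, and none passed. Klf2, a zinc finger factor, was lower in every mutant array (7.43, 7.04 and 7.33 in mutants, against 7.66, 7.65 and 7.57 in controls; difference -0.36, adjusted p = 0.397). The mitochondrial superoxide dismutase gene Sod2 was also wholly lower (-0.35), and the catalase gene Cat stood at -0.24 with overlap.

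Foxj3 and Foxj2, relatives of each other that are present in many tissues, were slightly lower. Foxj3 read 8.75, 8.87 and 8.91 in mutant arrays, against 9.14, 9.04 and 9.00 in control arrays. Mutant 3 and control 3 were the nearest arrays of the groups (difference -0.21, interval -0.42 to -0.01, adjusted p = 0.477). Foxj2 read 9.78, 9.54 and 9.64 in mutant arrays, against 9.84, 9.79 and 9.80 in control arrays. Mutant 1 nearly touched the controls (difference -0.16, interval -0.37 to 0.06, adjusted p = 0.635).

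Foxm1, the activator of genes of late cell division, was high in the controls whose lymphoid markers were high. It read 5.76, 5.78 and 5.75 in mutant arrays, against 5.79, 6.41 and 6.65 in control arrays. Control 1 lay close to the mutants, and controls 2 and 3 were higher. Mutant 2, whose B and plasma cell markers were also high, read 5.78. The difference was -0.52 (interval -1.03 to -0.01, limma adjusted p = 0.489). It was -0.76 without control 1, where it passed (limma adjusted p = 0.0322), and -0.03 without controls 2 and 3. Control 1 was the lowest control for Foxm1 and controls 2 and 3 the highest, so both shifts had to follow. With controls 2 and 3 left out, control 1 was the only control. The 14 measured G2/M genes averaged 6.38, 6.33 and 6.23 in mutant arrays, against 5.80, 7.17 and 7.02 in control arrays, so control 1 was the lowest and controls 2 and 3 the highest. Of these, 12 were below 0, and none passed or separated the groups. The kinase gene Aurkb stood at -0.99, the kinetochore motor gene Cenpe at -0.74 and the proliferation marker Mki67 at -0.76. The part of lymphoid cells in these values was not tested.

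The list of mesenchymal and vascular members held Foxf1, Foxf2, Foxc1, Foxc2, Foxd1, Foxd2, Foxl1, Foxl2, Foxs1 and Foxe3. Of these 10, 8 were above 0 with a median of 0.10, and none passed. The label is loose for Foxl2 and Foxe3, which stood at 0.07 and 0.04. Foxf1, needed for the vessels and mesenchyme of the lung, read 10.60, 10.70 and 10.22 in mutant arrays, against 10.73, 10.02 and 10.48 in control arrays (difference 0.10, interval -0.41 to 0.60). A second row of Foxf1 gave -0.25 (interval -0.88 to 0.38), so the rows disagreed in sign and neither passed. Foxf2, its mesenchymal relative, read 7.45, 7.45 and 7.36 in mutant arrays, against 7.41, 6.93 and 7.57 in control arrays, with control 2 alone low (difference 0.11, interval -0.29 to 0.52). Of 12 genes linked to Foxf1 in mesenchyme and endothelium, none passed. Notch2, a Notch receptor, was lower in every mutant array, at 8.38, 8.41 and 8.40, against 8.85, 8.83 and 8.64 in control arrays (difference -0.38, adjusted p = 0.217), while S1pr1 (-0.13) and Gli1 (-0.12) overlapped.

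Foxs1, known from cells around blood vessels and from sensory neurons, was the 1 member that was higher in every mutant array. It read 6.36, 6.41 and 6.38 in mutant arrays, against 6.03, 6.07 and 5.90 in control arrays. The mutant arrays were closer to each other than the control arrays were. The difference was 0.38 (SE 0.08, interval 0.19 to 0.57), a fold of 1.30, and it had the smallest p of the family (limma adjusted p = 0.200, exact permutation p = 0.1). It ranged from 0.33 to 0.42 over the 17 settings and passed in none, with the smallest adjusted p (0.0504) when arrays were weighted by quality. Endothelial markers averaged 9.14, 9.44 and 8.82 in mutant arrays, against 9.32, 8.80 and 9.31 in control arrays. Smooth muscle markers averaged 11.48, 11.05 and 11.30 against 11.49, 11.15 and 11.14. Fibroblast markers averaged 9.246, 9.4 and 9.199 against 9.245, 9.152 and 9.109. The groups overlapped in each list. The part of cell makeup in the Foxs1 value was not tested.

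The other 24 members differed by -0.17 to 0.28, with overlapping groups and adjusted p from 0.617 to 0.991. They were Foxb1, Foxb2, Foxc1, Foxc2, Foxd1, Foxd2, Foxd3, Foxd4, Foxe1, Foxe3, Foxh1, Foxi2, Foxi3, Foxk1, Foxk2, Foxl1, Foxl2, Foxn1, Foxn2, Foxn3, Foxo4, Foxo6, Foxr1 and Foxr2. Most are regulators of the development of nervous system, gonad, kidney, eye, thymus or other tissues, while Foxk1, Foxk2, Foxn2, Foxn3 and Foxo4 are broadly expressed. Among 10 members listed for neural, gonadal and other development, a list without Foxl2, 7 were above 0 and 3 below. Their median was 0.04. A second row of Foxn3, chosen after its values were seen, read 7.23, 7.13 and 7.27 in mutant arrays, against 7.57, 7.41 and 7.72 in control arrays (difference -0.36, adjusted p = 0.340 in a fit of all rows with 1 symbol). The brighter row of that gene gave -0.01, so the rows disagreed. Foxq1, Foxf2 and Foxc1, which follow each other on chromosome 13, stood at -0.12, 0.11 and 0.26.

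Partners and reported targets of the Foxp proteins were examined last. NuRD is the histone deacetylase and remodelling complex through which Foxp1 and Foxp4 are known to repress. None of its 13 subunits passed, with 6 above 0, 7 below and a median of -0.04. Hdac1, a deacetylase subunit, read 9.65, 9.88 and 9.69 in mutant arrays, against 10.03, 10.14 and 10.06 in control arrays, wholly lower (difference -0.34, interval -0.56 to -0.12, adjusted p = 0.306). Mta3, a scaffold subunit, was also wholly lower (-0.33), and Chd3, a remodelling ATPase, wholly higher (0.23). Of 10 measured genes reported downstream of Foxp1 and Foxp4 in lung, 6 were higher in every mutant array (beside 9.33% of all genes) and 1 passed (beside 0.266%). That gene was Npy, the neuropeptide Y gene named in the title of the series, at 11.41, 10.14 and 11.47 in mutant arrays, against 5.88, 5.92 and 6.08 in control arrays (difference 5.05, limma adjusted p = 0.0067). The list was drawn up with results of these data known, so its direction is no independent evidence. Scgb1a1 and Sftpc, of the 6 higher in every mutant array, were also counted among the Foxa targets. Npy was lowest among mutants in mutant 2, the array in which Foxp4 was also lowest. Ciliated cell markers were lowest in that array too, and a relation of Npy to Foxp4 was not tested.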

How the data were processed

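RNA from mutant and control airways was hybridised to 6 mouse gene arrays, 3 per group. The authors deposited a log2 value for every probe set on each array, and oligo, RMA and limma are named per the submitters' processing notes. For tool versions and the array's genome build, nothing is given in the sources used here. RMA subtracts background, forces a common distribution on the arrays and merges probes into sets, so low-signal differences are compressed. No detection calls were used, so no member was called above or below background. The lower quartile of all rows lay between 4.42 and 4.50 per array, and 2 members averaged below it. Only 24 of the 43 members lay above the lowest 40% of genes by mean. Foxi1, Foxn4 and Foxp3 did not, so their small differences say little.

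The platform annotation named 1 gene for 21789 of 35556 rows, and the row with the highest mean was kept for each of 19938 genes. Foxf1 and Foxn3 had a second row. Sequences and gene order are from RefSeq on GRCm38.p6, and no coordinate is given for probe sets. Groups were compared with lmFit and eBayes of limma 3.58.1 under R 4.3.3, on genotype alone and without a filter. Tests were two-sided, with Benjamini-Hochberg adjustment over all genes and a threshold of 0.05. Intervals are moderated and hold for 1 gene at a time. The procedure was tested on simulated data. Python 3.11.15 and pandas 2.3.3 were used to join tables.

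Members and lists were chosen with earlier results of these data known. Genes named were the Foxp genes, members whose groups do not overlap, the 6 with the highest mean, the 6 with the largest difference, the 4 with the largest SD, set regulators of airway cell types, and, in each linked list, the genes that passed or else the 3 with the smallest p. As alternatives, values were centred on array medians or quantile normalised once more, rows of a gene were averaged, the lowest 40% of genes were dropped, each array was left out in turn, and the model was given array weights, a replicate block, an intensity trend or robust eBayes. Added after seeing the data were 2 omissions (controls 2 and 3; control 1 with mutant 2) and the fit of all rows with 1 symbol.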

Additional observations from a re-analysis of the deposited data

How the results depend on the processing

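With the replicate number as a block, 0 forkhead genes and 0 of all genes passed, against 0 and 53 without it. The labels do not state whether the numbers pair the arrays. Same-numbered arrays deviated together at r = 0.136, -0.091 and -0.04, and differently numbered arrays at -0.204 to 0.176. Cell content differed widely within groups, so these values cannot decide whether arrays were paired. Of all genes, 291 passed with array weights, 82 with an intensity trend, 9 to 388 with 1 array left out, 0 when controls 2 and 3 were left out and 963 when control 1 and mutant 2 were. Forkhead genes passed in 3 settings: 1 with array weights (Foxo1), 1 without control 1 (Foxm1, the count being 0 to 1 with 1 array left out), and 3 when control 1 and mutant 2 were left out (Foxm1 at -0.77, Foxp2 at 0.58 and Foxp4 at -0.53, adjusted p = 0.0246, 0.0351 and 0.0478). Members with separate groups numbered 10 to 19 with 1 array left out (21.6% to 31.8% of all genes), 21 without controls 2 and 3 (52% of all genes) and 26 without control 1 and mutant 2 (49.6% of all genes); with fewer arrays, separation is more frequent for any gene. All 7 members with separate groups kept their sign in every setting. Leaving arrays out or changing the model cannot turn the sign of a gene whose groups do not overlap. Most settings could therefore not have shown otherwise.

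Signs of named members that did not pass turned as follows, and the cause was not tested. With array weights, Foxf1 stood at -0.0318, Foxf2 at -0.0171, Foxj1 at 0.13 and Foxq1 at 0.15. Foxi1 was -0.000274 after repeated quantile normalisation, Foxo3 0.0331 after median centring and Foxf1 -0.077 as the mean of its rows. With controls 2 and 3 left out, Foxf1 was -0.22, Foxi1 -0.0582, Foxj1 0.0141, Foxn4 -0.034 and Foxp2 -0.14. With control 1 and mutant 2 left out, Foxj1 was 0.14, Foxo3 0.11 and Foxq1 0.26. With 1 array left out, Foxf1 ranged from -0.10 to 0.25, Foxf2 from -0.0718 to 0.25, Foxi1 from -0.0776 to 0.0565, Foxj1 from -0.22 to 0.19, Foxn4 from -0.0371 to 0.11, Foxo3 from -0.12 to 0.084 and Foxq1 from -0.25 to 0.0793.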
